A study of Mus musculus with 16 samples.

Results

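The tumour suppressor p53 is a transcription factor that is held at a low level in unstressed cells and accumulates after DNA damage, oncogene activity and other stress. It then raises genes that arrest the cell cycle, repair DNA, change metabolism or start cell death, and it also raises its own inhibitors, so that the response limits itself. In mouse liver it is known for limiting the growth of hepatocytes that carry damaged DNA or an active oncogene. The genes described here are p53 itself (Trp53) and 9 genes that p53 is known to raise: Mdm2, Ccng1, Trp53inp1, Bax, Btg2, Sesn2, Phlda3, Bbc3 and Pmaip1. They were chosen by name, as probe sets (groups of probes on the array that measure 1 transcript) with that single gene symbol. Of the 10 genes, 8 had such a probe set, with 15 probe sets of the 45101 on the array. No probe set carried Trp53 or Bax as its single symbol in the annotation used, and both are not analysed here. All results are therefore about target transcripts, not about the level or activity of the p53 protein.

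RNA of 16 pieces of mouse liver was measured on Affymetrix GeneChip arrays, 1 array each. All mice were male C3H/HeJ, and the design text gives a single injection of the liver carcinogen diethylnitrosamine (DEN; 10 or 90 µg/g, given when the mice were 2 or 6 weeks old) as shared by tumour and control mice, followed by 2 weeks without treatment. It does not say which mouse had which dose. The groups were 7 Ctnnb1-mutated tumours and 3 non-tumour control livers of mice given 0.05% phenobarbital, and 3 Ha-ras-mutated tumours and 3 non-tumour control livers of mice without it (untreated controls). Ctnnb1 encodes β-catenin of the Wnt pathway, Ha-ras is a growth-signalling GTPase, and phenobarbital is a drug that promotes liver tumours. The sources differ on the phenobarbital course, which is 27 weeks in drinking water in the sample labels, 28 to 36 weeks on a diet in the design text and 28 days in drinking water in the protocol text. Nothing says that the samples of a group came from separate animals, so p-values measure the spread between these samples, which may be partly technical.

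Values are log2 RMA intensities, a normalized probe brightness on a log scale, on which a difference of 1 is a doubling. They can be compared between arrays for 1 probe set, but not between genes. Array medians lay between 5.03 and 5.10. The 3′ end of the Gapdh control exceeded its 5′ end by 2.70 in phenobarbital control 6, against −0.15 to 0.32 in the other 15 arrays, which is a sign of lower RNA integrity in that sample. Hepatocyte markers had a mean level of 14.04 to 14.25 in Ctnnb1 tumours, 14.06 to 14.28 in phenobarbital controls, 14.34 to 14.40 in Ha-ras tumours and 14.23 to 14.30 in untreated controls, so the label of liver held in every array. A gene was counted as passed at an adjusted p under 0.05 in limma, over all 18193 genes, and "rose" and "fell" are used of such genes alone. Whole liver pieces were measured, so a change in the share of a cell type cannot be told apart from a change in RNA per cell.

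The promoters of the members that the results turn on are shown first, to let their letters be set beside the values. Each line gives the 250 bases before the transcript start, 5′ to 3′ on the gene's strand, from the RefSeq annotation of GRCm38.p6. Capitals mark a match to 1 of 4 motifs searched on both strands: the p53 half-site, the CArG box, the cAMP response element (TGACGTCA) and the AP-1 site (TGANTCA).
Btg2 (chr1:134079156-134079405, minus strand): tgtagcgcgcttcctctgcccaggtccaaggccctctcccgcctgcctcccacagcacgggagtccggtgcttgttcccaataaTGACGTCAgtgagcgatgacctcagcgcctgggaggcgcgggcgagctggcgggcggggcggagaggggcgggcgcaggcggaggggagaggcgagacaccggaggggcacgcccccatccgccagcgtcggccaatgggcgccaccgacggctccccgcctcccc
Phlda3 (chr1:135765835-135766084, plus strand): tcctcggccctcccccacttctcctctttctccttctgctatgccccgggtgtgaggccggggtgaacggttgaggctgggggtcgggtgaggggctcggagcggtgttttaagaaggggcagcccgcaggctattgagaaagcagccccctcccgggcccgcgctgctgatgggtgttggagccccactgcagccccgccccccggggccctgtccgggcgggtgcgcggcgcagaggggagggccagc
Mdm2 (chr10:117710759-117711008, minus strand): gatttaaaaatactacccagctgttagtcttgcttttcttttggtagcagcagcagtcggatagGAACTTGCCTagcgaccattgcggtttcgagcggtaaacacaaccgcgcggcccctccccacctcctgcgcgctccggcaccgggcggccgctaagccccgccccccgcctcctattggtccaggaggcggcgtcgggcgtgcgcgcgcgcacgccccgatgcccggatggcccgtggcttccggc
Ccng1 (chr11:40755287-40755536, minus strand): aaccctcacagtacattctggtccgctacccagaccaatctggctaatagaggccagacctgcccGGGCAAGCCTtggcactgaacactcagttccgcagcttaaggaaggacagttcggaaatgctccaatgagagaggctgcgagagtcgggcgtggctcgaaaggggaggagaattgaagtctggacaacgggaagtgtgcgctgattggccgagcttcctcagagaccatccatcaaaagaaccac

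The Btg2 sequence held a cAMP response element, at bases −166 to −159 from the start, where −1 is the base just before the start. Mdm2 held a p53 half-site at −186 to −177 and Ccng1 held one at −185 to −176. Phlda3 held none of the 4 motifs in its window, which ran to 50 bases after the start. A p53 half-site is common: 8.36% of all 32851 promoter windows held one, 1.79% held a cAMP response element, 7.81% an AP-1 site and 1.63% a CArG box. A pair of half-sites, at most 13 bases apart as in a full p53 site, was found in 0.0731% of windows and in none of the members'. The windows of Sesn2 and Bbc3 held none of the 4 motifs, those of Bax and Trp53 held a half-site each (at −201 to −192 and at −75 to −66), and Trp53inp1 and Pmaip1 had no window in the table. As background, p53 binds many of its targets inside the gene or farther away; in Mdm2 it acts from a promoter in the first intron, which this window does not cover. The matches are descriptions of letters and were not tested as sites.

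Ha-ras tumours were set against untreated controls. Of the 8 genes measured, 4 rose, namely Btg2, Phlda3, Trp53inp1 and Mdm2, and 0 fell. Over all genes tested, 7.21% rose and 6.33% fell in this comparison. The median log2 change was 0.58 over the 8 genes, against −0.04 over all genes, and 7 of the 8 changes were above 0. Of the 15 probe sets, 6 rose and 0 fell. The mean level of the 8 genes was 8.40 to 8.65 in Ha-ras tumours and 7.43 to 7.65 in untreated controls.

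**Figure D1:**
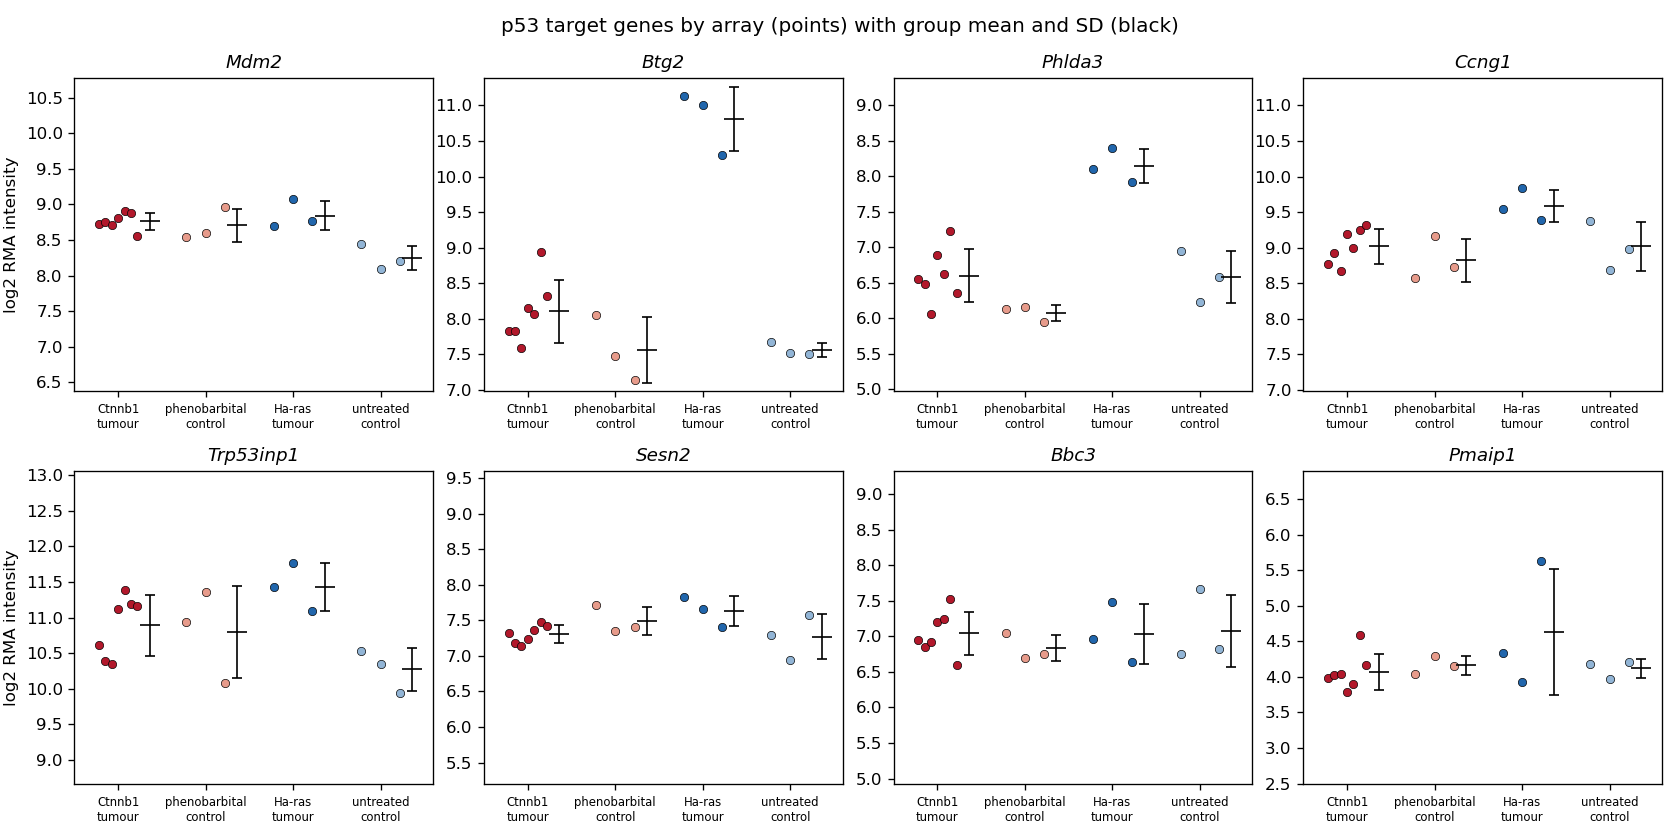
Log2 RMA intensity (vertical axis) of the 8 p53 target genes in each of 16 arrays (points), by group along the horizontal axis, with the group mean and SD beside the points in black; every panel spans the same number of log2 units. Btg2 and Phlda3 of the 3 Ha-ras tumours lie above all other arrays, while Ctnnb1 tumours lie among or close to the controls for all 8 genes.

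Btg2, an antiproliferative protein that slows entry into S phase and speeds mRNA decay, changed by the largest amount of the 8. It is also known as an immediate early gene, one that growth signals raise quickly. It had 11.13, 11.01 and 10.30 in Ha-ras tumours, against 7.67, 7.52 and 7.50 in untreated controls. The lowest tumour was more than 2 log2 units above the highest control. The log2 change was 3.25 ± 0.30 (SE; 9.52-fold higher, limma adjusted p = 3.8e-06), and it passed in 6 of 6 runs that each left out 1 of these arrays. Its other probe set gave 2.86 ± 0.26 (adjusted p = 4.8e-06).

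Phlda3, a PH-domain protein that competes with the survival kinase Akt for membrane lipids and so restrains it, rose as well. It had 8.11, 8.40 and 7.92 in Ha-ras tumours, against 6.95, 6.22 and 6.58 in untreated controls. The groups were clearly apart. The change was 1.56 ± 0.24 (2.94-fold higher, adjusted p = 0.00042), and it passed in 6 of 6 runs with 1 array left out.

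Mdm2, the ubiquitin ligase that marks p53 for destruction and so closes the feedback loop, rose by a smaller step. It had 8.69, 9.07 and 8.77 in Ha-ras tumours, against 8.44, 8.10 and 8.20 in untreated controls. The groups did not overlap, but the gap between the lowest tumour and the highest control was small. The change was 0.60 ± 0.14 (1.51-fold higher, adjusted p = 0.0086), and without Ha-ras tumour 2, the highest array, it was 0.48 with adjusted p = 0.052. A second, dimmer probe set rose by more, at 0.98 ± 0.22 (adjusted p = 0.0082). Another probe set was dim in every array, between 3.06 and 3.92 over all 16, and had a change of −0.12 ± 0.17 (adjusted p = 0.77).

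Trp53inp1, a stress-induced nuclear protein that assists p53 in cell death and also acts in autophagy, rose on its brighter probe set alone. It had 11.43, 11.77 and 11.10 in Ha-ras tumours, against 10.52, 10.35 and 9.94 in untreated controls. The change was 1.16 ± 0.33 (2.24-fold higher, adjusted p = 0.025). It passed in 2 of 6 runs with 1 array left out, and was lost without Ha-ras tumour 1 or 2 or without untreated control 2 or 3, at adjusted p from 0.056 to 0.11. The dimmer probe set, with group means of 5.07 in Ha-ras tumours and 4.47 in untreated controls, changed by 0.60 ± 0.25 (adjusted p = 0.17).

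Ccng1, cyclin G1, which brings a phosphatase to Mdm2 and so feeds back on p53, did not pass. It had 9.54, 9.84 and 9.39 in Ha-ras tumours, against 9.38, 8.69 and 8.98 in untreated controls. The groups touched without overlapping, since the lowest tumour stood just above untreated control 1. The change was 0.57 ± 0.21 (adjusted p = 0.084), and it was 0.75 and passed (adjusted p = 0.040) without untreated control 1. The other probe sets gave 0.61 (adjusted p = 0.11) and 0.45 (adjusted p = 0.40).

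The stress sensor and the death genes among the members did not pass. Sesn2, sestrin 2, which lowers mTORC1 signalling and oxidative stress, had 7.83, 7.67 and 7.41 in Ha-ras tumours, against 7.30, 6.94 and 7.57 in untreated controls, and the groups overlapped (0.37 ± 0.16, adjusted p = 0.15). Bbc3 encodes PUMA, a BH3-only activator of mitochondrial cell death. It had 6.96, 7.48 and 6.64 in Ha-ras tumours, against 6.75, 7.66 and 6.82 in untreated controls, with 1 high array in each group (−0.05 ± 0.26, adjusted p = 0.93). Pmaip1 encodes NOXA, another BH3-only protein. It had 4.33, 3.93 and 5.63 in Ha-ras tumours, against 4.18, 3.97 and 4.22 in untreated controls, so that Ha-ras tumour 3 alone stood high (0.51 ± 0.31, adjusted p = 0.32). Without that tumour the change of Pmaip1 was 0.01.

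Ctnnb1 tumours were set against phenobarbital controls. None of the 8 genes passed with limma, that is 0 rose and 0 fell, against 6.07% that rose and 5.97% that fell over all genes. At an unadjusted p under 0.05, the count was 2 of 8, both higher. Of the 15 probe sets 0 passed. The median change was 0.15 over the 8 genes and −0.03 over all genes, and the changes ran from −0.18 for Sesn2 to 0.55 for Btg2. Leaving out phenobarbital control 6 alone, or with Ctnnb1 tumours 6 and 7, also gave 0.

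Btg2 ran from 7.59 through a median of 8.07 to 8.94 in Ctnnb1 tumours, against 8.06, 7.48 and 7.14 in phenobarbital controls. The groups overlapped, since phenobarbital control 4 stood near the median tumour. The change was 0.55 ± 0.26 (95% interval 0.00 to 1.09, adjusted p = 0.18). Phlda3 ran from 6.07 through 6.56 to 7.23 in Ctnnb1 tumours, against 6.13, 6.16 and 5.95 in phenobarbital controls. All but 1 tumour lay above the controls, and the change was 0.53 ± 0.21 (interval 0.09 to 0.96, adjusted p = 0.11). Among the arrays with replicate numbers 4 to 6 in these groups and 1 to 3 in the Ha-ras comparison, fitted alone as an alternative chosen after the data were seen, Phlda3 passed with a change of 0.84 (adjusted p = 0.037).

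The p53 regulators among the members did not pass in this comparison. Mdm2 ran from 8.56 through 8.76 to 8.91 in Ctnnb1 tumours, against 8.54, 8.60 and 8.96 in phenobarbital controls, and its change was 0.06 (interval −0.19 to 0.31, adjusted p = 0.80). Ccng1 ran from 8.68 through 8.995 to 9.32 in Ctnnb1 tumours, against 8.58, 9.16 and 8.73 in phenobarbital controls (0.20, interval −0.18 to 0.57, adjusted p = 0.52). The groups overlapped for both genes, for Mdm2 mainly through phenobarbital control 6, the array with the wide Gapdh gap. With 1 array left out, the change of Mdm2 was between −0.02 and 0.19, and the part of RNA integrity was not tested. The other probe sets of Mdm2 changed by 0.34 (adjusted p = 0.28) and −0.02 (adjusted p = 0.96). Those of Ccng1 changed by 0.29 (adjusted p = 0.38) and 0.44 (adjusted p = 0.28).

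Trp53inp1 ran from 10.35 through 11.12 to 11.39 in Ctnnb1 tumours, against 10.93, 11.37 and 10.09 in phenobarbital controls. Phenobarbital control 6, with the wide Gapdh gap, was the lowest of these 10 arrays, and the part of RNA integrity in its value was not tested. The change was 0.10 (interval −0.49 to 0.68, adjusted p = 0.87), and it was between −0.26 and 0.38 with 1 array left out. The probe sets of Sesn2 went different ways, at −0.18 (adjusted p = 0.42) for the brighter and 0.37 (adjusted p = 0.058) for the dimmer, which ran from 5.04 to 5.55 in Ctnnb1 tumours, against 4.78 to 4.93 in phenobarbital controls. Bbc3 changed by 0.21 (adjusted p = 0.60) and Pmaip1 by −0.10 (adjusted p = 0.86), with overlapping groups.

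**Figure D2:**
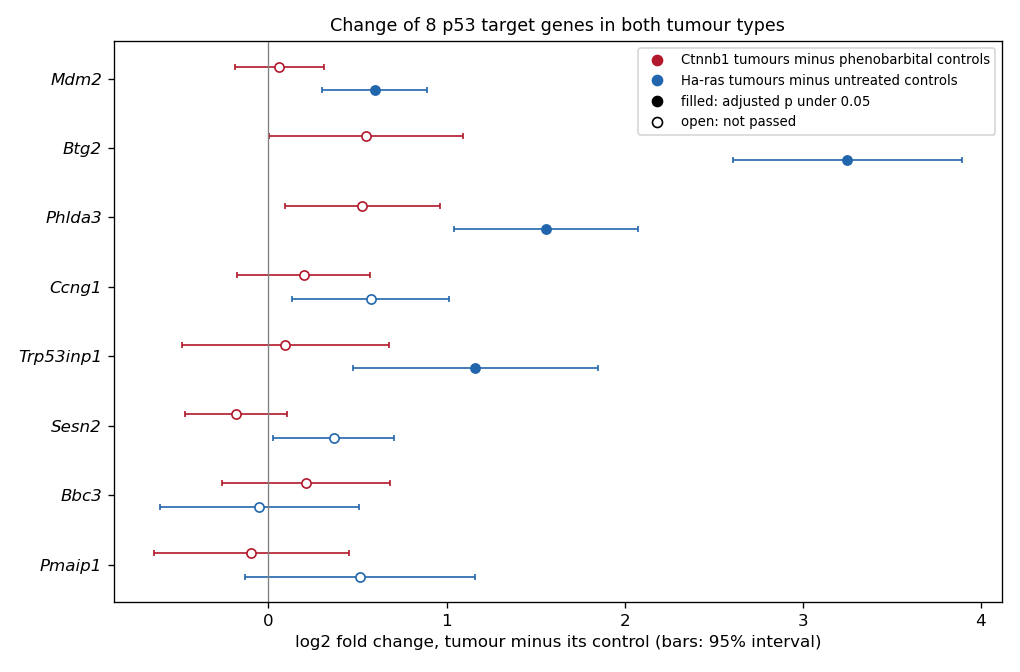
Log2 fold change of each of the 8 genes (horizontal axis), tumour minus its own control, with the 95% interval from limma as bars; red is Ctnnb1 and blue is Ha-ras, and filled points passed. Btg2 stands at 3.25 in Ha-ras tumours and 0.55 in Ctnnb1 tumours, and the blue points of Mdm2, Btg2, Phlda3 and Trp53inp1 are filled while no red point is.

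The difference between the tumour effects (the Ctnnb1 change minus the Ha-ras change) was tested itself. Of the 8 genes, 1 passed, Btg2, with a smaller rise in Ctnnb1 tumours, against 3.29% of all genes that passed on this side and 2.14% on the other. The difference for Btg2 was −2.70 ± 0.40 (interval −3.55 to −1.86, adjusted p = 0.00062), and it passed in 16 of 16 runs with 1 array left out. Its other probe set gave −2.45 ± 0.34 (adjusted p = 0.0006). Phlda3 differed by −1.03 ± 0.32 (adjusted p = 0.075). Its difference passed without Ctnnb1 tumour 6 (−1.14, adjusted p = 0.021). Trp53inp1 differed by −1.07 ± 0.43 (adjusted p = 0.18) and Mdm2 by −0.54 ± 0.18 (adjusted p = 0.11). Without phenobarbital control 6 and Ctnnb1 tumours 6 and 7 together, 3 genes passed: Btg2, Phlda3 (−1.17, adjusted p = 0.031) and Trp53inp1 (−1.54, adjusted p = 0.031). The differences of Sesn2 (−0.55), Ccng1 (−0.38), Pmaip1 (−0.61) and Bbc3 (0.26) did not pass. The dimmer probe set of Sesn2 differed by 0.02 (adjusted p = 0.97). The other probe sets of Ccng1 differed by −0.32 (adjusted p = 0.67) and −0.01 (adjusted p = 0.99). Over the 8 genes the median difference was −0.58, against 0.01 over all genes.

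The tumour types were also set directly against each other, where the mutation and phenobarbital go together and cannot be told apart. Btg2, Phlda3 and Ccng1 were lower in Ctnnb1 tumours, 3 of 8, and 0 were higher, against 7.9% lower and 7.21% higher over all genes. The difference, Ctnnb1 minus Ha-ras, was −2.71 ± 0.26 for Btg2 (adjusted p = 2.1e-06) and −1.54 ± 0.21 for Phlda3 (adjusted p = 7.0e-05). Both passed in 10 of 10 runs with 1 array left out. Ccng1 differed by −0.57 ± 0.18 (adjusted p = 0.038), which passed in 4 of 10 such runs: it was lost without Ctnnb1 tumour 1, 2, 3 or 5 and without Ha-ras tumour 1 or 2, at adjusted p from 0.058 to 0.20. Its other probe sets gave −0.45 and −0.56 and did not pass (adjusted p = 0.16 and 0.17). Mdm2, which rose against controls in Ha-ras tumours, differed by −0.08 ± 0.12 between the tumour types (interval −0.33 to 0.17, adjusted p = 0.75). Pmaip1 differed by −0.56 (adjusted p = 0.17), and by −0.91 (adjusted p = 0.029) without Ha-ras tumour 2, its lowest Ha-ras array. Without Ha-ras tumour 3, its highest, the difference was −0.07 (adjusted p = 0.87).

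Between the control livers, phenobarbital against untreated, 0 of 8 genes passed with limma, while 0.132% of all genes rose and 0.0824% fell. At an unadjusted p under 0.05, the count was 1 of 8, Mdm2, which had 8.54, 8.60 and 8.96 in phenobarbital controls, against 8.44, 8.10 and 8.20 in untreated controls. These did not overlap, and the change was 0.46 ± 0.14 (interval 0.16 to 0.75, adjusted p = 0.17). On this probe set its level in phenobarbital controls stood close to that in both tumour groups. The value of 8.96 was that of phenobarbital control 6, with the wide Gapdh gap, and the part of RNA integrity was not tested. On a second, dimmer probe set the controls overlapped (0.31, adjusted p = 0.57). Its means were 6.59 in phenobarbital controls, 6.28 in untreated controls, 6.93 in Ctnnb1 tumours and 7.26 in Ha-ras tumours. The dimmest probe set changed by 0.03 (adjusted p = 0.96). For Phlda3 the controls did not overlap, at 6.13, 6.16 and 5.95 in phenobarbital controls, against 6.95, 6.22 and 6.58 in untreated controls (−0.51 ± 0.24, adjusted p = 0.37). Btg2 changed by −0.01 ± 0.30 (interval −0.65 to 0.64, adjusted p = 0.99).

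In the order of group means, Ha-ras tumours were highest for 7 of the 8 genes, Bbc3 being the exception. For Btg2 the order was Ha-ras tumours (10.81 ± 0.45), Ctnnb1 tumours (8.10 ± 0.44), untreated controls (7.56 ± 0.10) and phenobarbital controls (7.56 ± 0.46; SD, n = 3, 7, 3 and 3). After the first, each neighbour overlapped the next. Phlda3 kept the same order, at 8.14 ± 0.24, 6.60 ± 0.38, 6.59 ± 0.36 and 6.08 ± 0.11, and so did Ccng1, at 9.59 ± 0.23, 9.02 ± 0.25, 9.02 ± 0.35 and 8.82 ± 0.30. Here too only the step after Ha-ras tumours was one without overlap, besides that between the controls for Phlda3. Mdm2 ran from Ha-ras tumours (8.84 ± 0.20) and Ctnnb1 tumours (8.76 ± 0.12) to phenobarbital controls (8.70 ± 0.23) and untreated controls (8.25 ± 0.17), with its only gap before the last. Trp53inp1 followed that order, at 11.43 ± 0.34, 10.89 ± 0.43, 10.80 ± 0.65 and 10.27 ± 0.30, with neighbours that overlapped throughout.

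Among the 7 Ctnnb1 tumours, tumour 6 had the highest level of 5 of the 8 genes: Btg2, Sesn2, Phlda3, Bbc3 and Pmaip1. Tumour 3 had the lowest of 5: Ccng1, Trp53inp1, Btg2, Sesn2 and Phlda3. Relative to the mean of the 7 tumours, Btg2 was at 0.83 in tumour 6 and −0.51 in tumour 3, and Phlda3 at 0.63 and −0.53. The mean level of the 8 genes was 8.14 in tumour 6 and 7.44 in tumour 3, against 7.56 to 7.81 in the other 5. The mean level of the stellate and fibroblast markers was also highest in tumour 6 and lowest in tumour 3 (8.27 and 7.35). Of these markers, Col1a1 and Col3a1 were highest in tumour 6, while Lrat, Dcn, Des and Reln were not. The part of these markers in the order of the tumours was not tested. None of the 15 probe sets had an array past Dixon's critical ratio in this group. From the lowest to the highest tumour, Btg2 spanned 1.35 log2 units, the widest range of the 8, and Sesn2 (0.34) and Mdm2 (0.35) the narrowest.

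**Figure D3:**
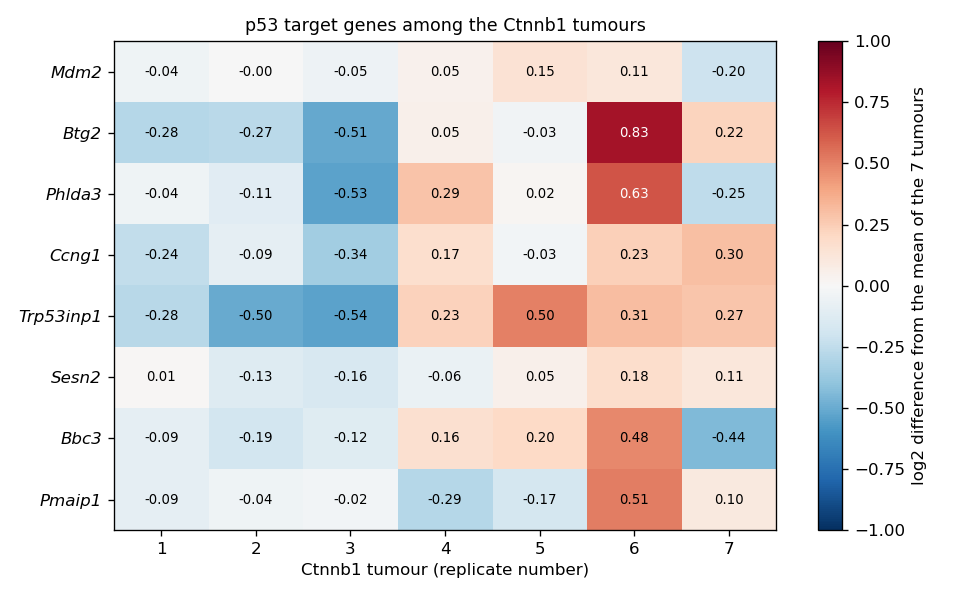
Log2 difference of each Ctnnb1 tumour (columns, replicate numbers 1 to 7) from the mean of the 7 tumours, for the 8 p53 target genes (rows); red is above and blue below that mean. Tumour 6 is above the mean for all 8 genes, with Btg2 at 0.83, and tumour 3 is below it for all 8.

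Pairs of the 8 genes were related over the 16 arrays to differing degrees, given as descriptions since all values share the same arrays and groups. Btg2 and Phlda3 had Pearson's r = 0.94 over the 16 arrays, and 0.68 after each group's mean was taken away. Ccng1 and Phlda3 had 0.85 and 0.68. Mdm2 and Btg2 had 0.40, and −0.04 after the group means were removed. The BH3-only genes Bbc3 and Pmaip1 had −0.34 and −0.41. Among all genes, those with the highest r with Mdm2 were Fam126a (0.88, and 0.69 within groups), Rhbdf2 (0.87 and 0.77) and Birc6 (0.86 and 0.74). With Ccng1 they were Ces2e (0.86 and 0.81), Bicdl1 (0.86 and 0.73) and Phlda3 itself. Of these, Fam126a had group means of 8.12 in Ha-ras tumours, 7.94 in Ctnnb1 tumours, 7.62 in phenobarbital controls and 7.11 in untreated controls, in the same order as Mdm2.

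Further known p53 targets, 39 measured genes in 4 lists, gave the wider setting. In Ha-ras tumours 8 rose and 3 fell of 39, with a median change of 0.24 (−0.04 over all genes). Over all genes 7.21% rose and 6.33% fell, so that the count of falls was near the background. In Ctnnb1 tumours 4 rose and 4 fell (6.07% and 5.97% of all genes), with a median of 0.06 (−0.03 over all genes). Without phenobarbital control 6, the array with the wide Gapdh gap, 0 rose and 3 fell, and the part of RNA integrity in these rises was not tested. In the difference between the tumour effects 2 were higher and 5 lower in the Ctnnb1 direction (2.14% and 3.29% of all genes; 3 lower without Ha-ras tumour 2 or untreated control 1 or 2), and between control livers 0 passed either way with limma (7 at an unadjusted p under 0.05).

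Of the 4 lists, the growth arrest targets had the highest median change in Ha-ras tumours (0.44). Of these 10 genes 3 rose and 0 fell, against 7.21% and 6.33% of all genes. Cdkn1a, p21, the cyclin-dependent kinase inhibitor that p53 is best known for, had 8.91, 9.20 and 8.94 in Ha-ras tumours, against 7.11, 6.75 and 7.34 in untreated controls. All 3 tumours were well above the controls, by 1.95 ± 0.40 (3.86-fold, adjusted p = 0.0032, passed in 6 of 6 runs with 1 array left out). In Ctnnb1 tumours Cdkn1a ran from 6.77 through 8.25 to 8.75, against 7.93, 7.57 and 7.47 in phenobarbital controls, and did not pass (0.51 ± 0.33, adjusted p = 0.36). The difference between the effects did not pass either (−1.44 ± 0.52, adjusted p = 0.13). Without Ctnnb1 tumour 3, the lowest of these arrays, both passed, at 0.74 (adjusted p = 0.041) and −1.21 (adjusted p = 0.049). Psrc1, a microtubule-binding protein, had 9.19, 9.89 and 9.07 in Ha-ras tumours, against 4.98, 4.93 and 5.05 in untreated controls. This was the largest change of all 39, at 4.40 ± 0.23 (21.1-fold, adjusted p = 2.2e-08). A second probe set of Psrc1 rose by 1.42 and another, dim one changed by 0.08 (adjusted p = 0.80). Zmat3, a zinc finger RNA-binding protein, rose by 1.31 ± 0.22 (2.47-fold, adjusted p = 0.00086).

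In the other target lists, calls in Ha-ras tumours went up as well as down, against 7.21% of all genes that rose and 6.33% that fell. Of 11 cell death targets 1 rose on the probe set kept for the gene. It was Apaf1, the scaffold of the apoptosome (0.98 ± 0.18, adjusted p = 0.0015, and 0.46 with adjusted p = 0.11 on its dimmer probe set). Aen did not pass on the probe set kept, but others rose by 0.65 (adjusted p = 0.0066) and 0.66 (adjusted p = 0.025). A further one changed by 0.25 (adjusted p = 0.38). The probe set at 0.66 also rose in Ctnnb1 tumours, by 0.55 (adjusted p = 0.031). Of 7 repair and nucleotide genes Polk, a bypass DNA polymerase, rose (0.96, adjusted p = 0.0032) and Fancc of the Fanconi anaemia pathway fell (−0.74, adjusted p = 0.0048), while other probe sets of Fancc did not pass. Of 11 metabolism and stress targets 3 rose and 2 fell. Ddit4, an inhibitor of mTORC1, rose by 0.96 ± 0.17 (adjusted p = 0.0013) and Prkab1, a subunit of AMP-activated kinase, by 0.997 ± 0.206 (adjusted p = 0.0036). Dram1, an autophagy protein, rose by 1.13 ± 0.36 at the edge of the threshold (adjusted p = 0.0499), and without any 1 of the arrays other than untreated control 3 it did not pass (0.052 to 0.21). Gpx1, glutathione peroxidase, fell by 1.09 on the log2 scale (adjusted p = 0.00063).

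**Figure D4:**
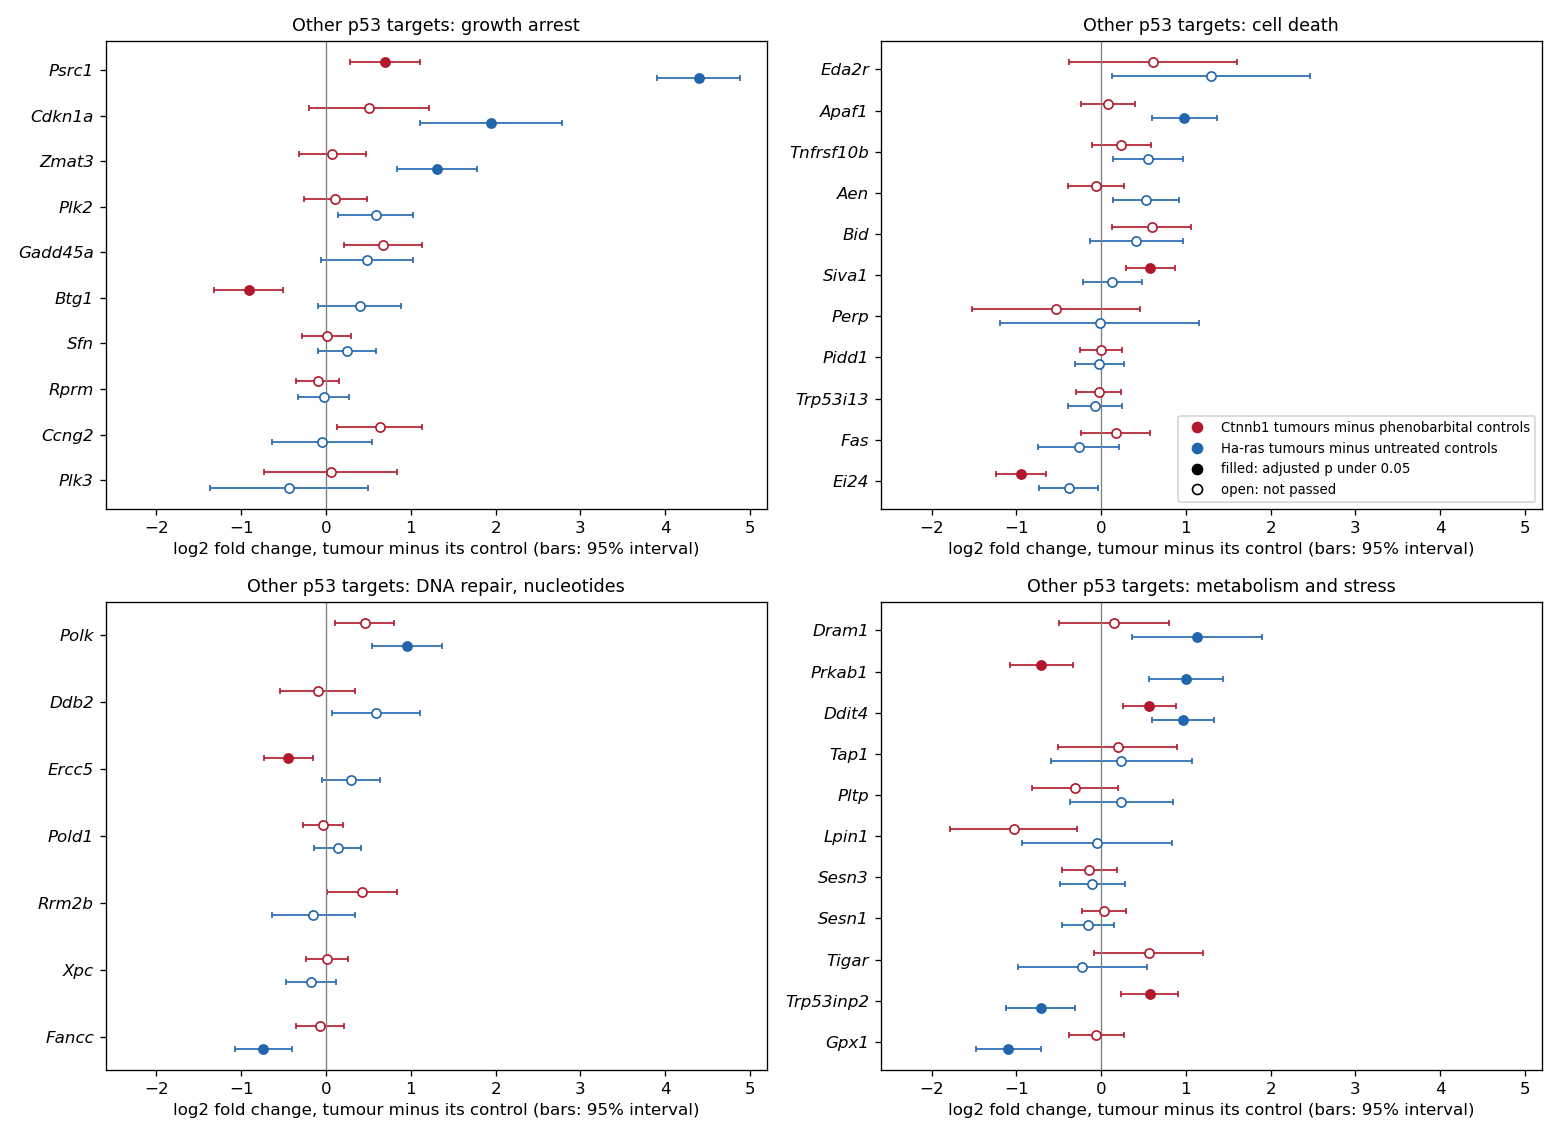
Log2 fold change of 39 further p53 targets in 4 lists (horizontal axis), tumour minus its own control, with 95% intervals; red is Ctnnb1, blue is Ha-ras, and filled points passed. Psrc1 (4.40), Cdkn1a (1.95) and Zmat3 (1.31) lead the Ha-ras rises, and the interval leaves out 0 for 14 of the 39 genes in Ctnnb1 tumours and 17 in Ha-ras tumours.

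In Ctnnb1 tumours the calls among these 39 genes went both ways, with 4 that rose and 4 that fell, against 6.07% and 5.97% of all genes. Btg1, the close relative of Btg2, fell by 0.91 on the log2 scale (adjusted p = 0.0066), with 9.56 to 10.53 in Ctnnb1 tumours and 10.96, 10.77 and 10.58 in phenobarbital controls. Its change in Ha-ras tumours was 0.40 (adjusted p = 0.30), and the difference between the effects passed (−1.31 ± 0.30, adjusted p = 0.016; 0.056 without untreated control 1). Ei24, a protein of the endoplasmic reticulum, fell by 0.95 on the log2 scale (adjusted p = 0.00057). Siva1 rose by 0.58 (adjusted p = 0.013), but was at adjusted p = 0.064 without phenobarbital control 6. Ddit4 rose by 0.57 (adjusted p = 0.020) and was at 0.12 without that array. Psrc1 rose by 0.69 (adjusted p = 0.030), with 0.054, 0.075 and 0.10 when phenobarbital control 4, 5 or 6 was left out. The probe set of Psrc1 that rose by 1.42 in Ha-ras tumours changed by 0.004 in Ctnnb1 tumours (adjusted p = 0.99), and the dim one by 0.16 (adjusted p = 0.39). Prkab1 fell by 0.71 on the log2 scale (adjusted p = 0.016; 0.055 without phenobarbital control 4), opposite to its rise in Ha-ras tumours, and the difference between the effects passed (−1.70 ± 0.27, adjusted p = 0.0012). Its second probe set changed by 0.21 in Ctnnb1 tumours (adjusted p = 0.37).

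Upstream of p53, 19 regulators and kinases were measured, of which 2 rose and 1 fell in Ha-ras tumours (median 0.18). Over all genes 7.21% rose and 6.33% fell, so that these counts were near the background. Cdkn2a encodes p16 and, from another reading frame, p19ARF, which holds Mdm2 away from p53; the probe set was not assigned to either. It had 7.13, 7.53 and 7.31 in Ha-ras tumours, against 4.72, 4.39 and 4.92 in untreated controls. The groups were far apart, by 2.65 ± 0.22 (6.26-fold, adjusted p = 1.1e-06). In Ctnnb1 tumours Cdkn2a ran from 4.47 through 4.69 to 5.35, against 4.39, 3.91 and 4.35 in phenobarbital controls (0.57 ± 0.18, adjusted p = 0.052; 0.040 and 0.043 without Ctnnb1 tumour 2 or 3), and the difference between the effects passed (−2.07 ± 0.28, adjusted p = 0.00033). Ppp1r13b, ASPP1, which steers p53 to death genes, rose by 1.20 ± 0.16 in Ha-ras tumours (adjusted p = 0.00012). The kinase Hipk2 fell by 0.55 on the log2 scale (adjusted p = 0.019), a call absent on its 7 other probe sets and lost without Ha-ras tumour 2 or untreated control 2 or 3. Mdm4, the partner of Mdm2 in holding p53 down, changed by 0.05 in Ha-ras tumours (adjusted p = 0.87) and 0.10 in Ctnnb1 tumours (adjusted p = 0.64). In Ctnnb1 tumours 1 of 19 rose, against 6.07% of all genes. It was the checkpoint kinase Chek1 (0.73, adjusted p = 0.034), which lost its call without Ctnnb1 tumour 1 or 6 or phenobarbital control 4 or 5. Its 4 other probe sets did not pass, at −0.12 to 0.58, and the mean of its probe sets changed by 0.22 (adjusted p = 0.11).

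The BCL2 family outside the members held 12 measured genes, of which 2 rose and 1 fell in Ha-ras tumours. Over all genes 7.21% rose and 6.33% fell. Bcl2l11, BIM, a BH3-only activator of cell death, had 9.21, 9.71 and 9.04 in Ha-ras tumours, against 7.13, 7.37 and 7.44 in untreated controls (2.00 ± 0.28, adjusted p = 0.00015). Bcl2, which blocks cell death, had 7.74, 8.18 and 7.59 in Ha-ras tumours, against 6.06, 5.94 and 6.38 in untreated controls (1.71 ± 0.35, adjusted p = 0.0035). Opposing members of the family thus stood high in the same 3 tumours. In both genes the difference between the tumour effects passed, at −1.78 for Bcl2l11 (adjusted p = 0.0084) and −1.87 for Bcl2 (adjusted p = 0.025). The call for Bcl2 was lost without Ha-ras tumour 2, phenobarbital control 4 or 6, or untreated control 1 or 2, at adjusted p from 0.055 to 0.072. In Ctnnb1 tumours Mcl1, another blocker, rose by 0.53 (adjusted p = 0.019, and 0.079 and 0.080 without phenobarbital control 4 or 5). Another probe set of Mcl1 rose by 0.80 (adjusted p = 0.0016), and the rest, at −0.003 to 0.46, did not pass. Bik fell by 0.95 on the log2 scale (adjusted p = 0.039). Among the 10 runs with 1 array left out, this call held only without Ctnnb1 tumour 1 or 6 or phenobarbital control 5. Another probe set of Bik fell by 1.79 on the log2 scale (adjusted p = 0.019), and a further one changed by −0.85 (adjusted p = 0.062).

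**Figure D5:**
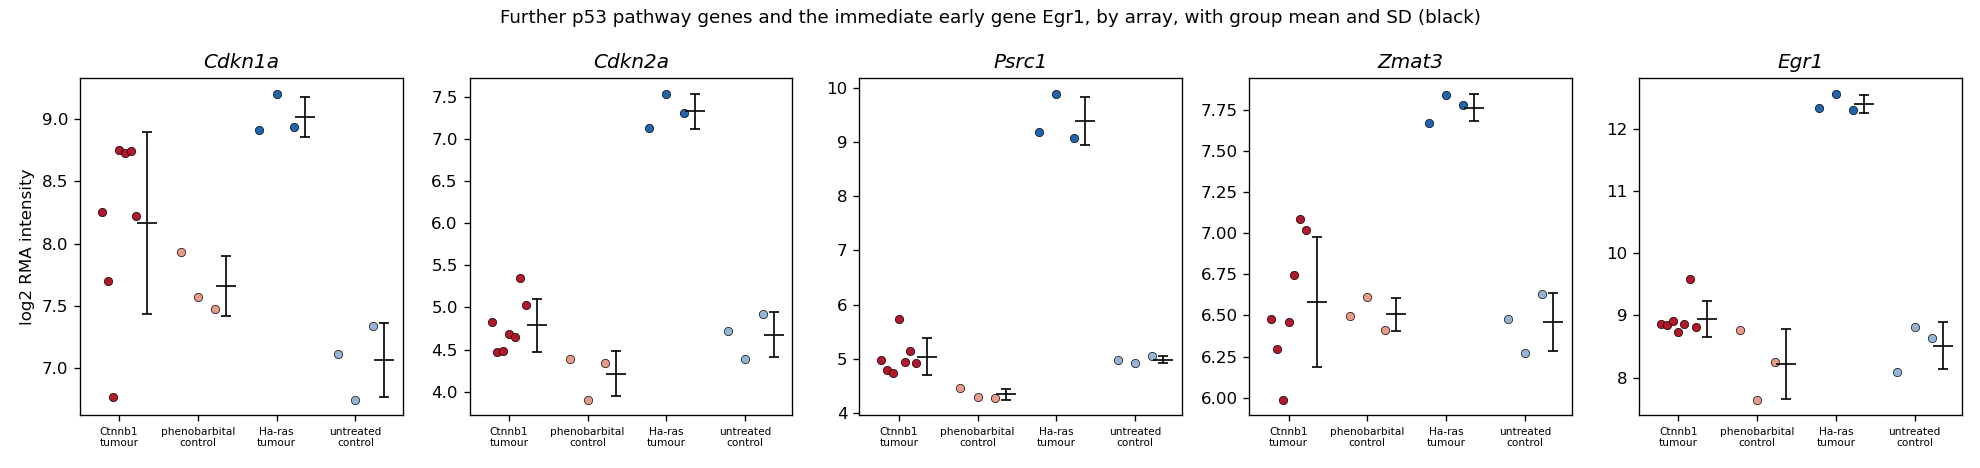
Log2 RMA intensity (vertical axes, each panel with its own range) of Cdkn1a, Cdkn2a, Psrc1, Zmat3 and the immediate early gene Egr1 in each array (points), by group, with the group mean and SD in black. The 3 Ha-ras tumours lie above every other array in all 5 panels, and Ctnnb1 tumours range from 6.77 to 8.75 for Cdkn1a.

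Other programmes moved along with the rise of p53 targets in Ha-ras tumours, where 7.21% of all genes rose and 6.33% fell. Of 10 immediate early genes 6 rose and 0 fell (median 1.23), and their mean level was 8.01 to 8.21 in Ha-ras tumours, against 6.61 to 6.86 in untreated controls. Egr1, a transcription factor raised by growth signals, had 12.32, 12.56 and 12.30 in Ha-ras tumours, against 8.09, 8.82 and 8.63 in untreated controls (3.88 ± 0.26, adjusted p = 1.2e-07). Fos rose by 2.38, Ier3 by 1.87 and Klf6 by 1.35. For Egr1 and Fos the difference between the effects passed, at −3.16 and −2.26, as it did for 5 of the 10 genes, all smaller in Ctnnb1 tumours. Ctnnb1 tumours had a mean level of the list of 6.98 to 7.44, against 6.90 to 7.19 in phenobarbital controls. Egr1 and Klf6 rose there, 2 of 10, against 6.07% of all genes. The call for Egr1 was lost without Ctnnb1 tumour 1, 2, 3, 5, 6 or 7 or phenobarbital control 5 or 6. It was also lost with quantile normalization (adjusted p = 0.063). Klf6 did not pass without phenobarbital control 5 (adjusted p = 0.089). The part of this programme in the rise of Btg2 was not tested.

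Over all genes 7.21% rose and 6.33% fell in Ha-ras tumours, and 6.07% rose and 5.97% fell in Ctnnb1 tumours. Of 10 genes of the integrated stress response 4 rose and 1 fell in Ha-ras tumours (median 0.50). Psat1 of serine synthesis rose by 3.45 ± 0.35 and Trib3, a pseudokinase, by 1.99 ± 0.29. The other rises, Atf3 and Atf4, were both lost without Ha-ras tumour 1 or untreated control 1, and the fall of Chac1 without Ha-ras tumour 2 or untreated control 1 or 3. The list's mean level was 7.75 to 8.42 in Ha-ras tumours, against 7.29 to 7.68 in untreated controls. In Ctnnb1 tumours 1 of the 10 rose, Psat1, and 0 fell (median 0.06). That call of Psat1 was lost without phenobarbital control 4 or 5 (limma adjusted p = 0.079 and 0.084). Its other probe set changed by 0.86 there and did not pass (adjusted p = 0.14). Proliferation genes rose in both tumour types, 9 of 9 in Ha-ras tumours (median 1.83) and 8 of 9 in Ctnnb1 tumours (median 1.71). The count in Ha-ras tumours was 2 of 9 without Ha-ras tumour 2 or untreated control 2 and 5 without untreated control 3, and in Ctnnb1 tumours it was 5 without phenobarbital control 4. Their mean level was 6.38 to 7.72 in Ctnnb1 tumours and 5.27 to 5.74 in phenobarbital controls, and 5.92 to 7.84 in Ha-ras tumours and 4.71 to 5.33 in untreated controls. The difference between the effects passed for 0 of the 9 with limma, and also for 0 at an unadjusted p under 0.05.

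Some lists of markers of other liver cells held calls in the tumour comparisons, all of them falls. Over all genes, 6.33% fell in Ha-ras tumours and 5.97% in Ctnnb1 tumours. Of 6 macrophage markers 2 fell and 0 rose in Ha-ras tumours (median −1.13). Their mean level was 6.55 to 8.71, against 8.38 to 9.30 in untreated controls. In this comparison 4 fell without Ha-ras tumour 3, and 1 without any other single array. In Ctnnb1 tumours 1 of the 6 fell and 0 rose (median −0.76), and 0 to 1 fell with 1 array left out. Their mean level there was 7.77 to 8.675, against 8.355 to 9.17 in phenobarbital controls. Of 6 stellate and fibroblast markers 2 fell in each tumour type, and their mean level was 7.35 to 8.27 in Ctnnb1 tumours, 8.15 to 8.58 in phenobarbital controls, 7.67 to 8.34 in Ha-ras tumours and 8.37 to 8.43 in untreated controls. Endothelial markers held 0 calls in either tumour comparison with limma. At an unadjusted p under 0.05, the count was 4 of 6 in Ctnnb1 tumours and 5 of 6 in Ha-ras tumours. Of the 6 changes, 2 were above 0 in Ctnnb1 tumours and 3 in Ha-ras tumours. Lymphocyte markers also held 0, with 2 of 7 and 0 of 7 at that p, and of 4 cholangiocyte markers 1 fell in Ctnnb1 tumours, in 4 of 10 runs with 1 array left out. The part of cell composition in the changes of the p53 targets was not tested.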

How the data were processed

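The authors deposited 1 log2 value for each probe set and array, made by RMA in R 2.14.1 per the submitters' processing notes. They were used without further scaling; scanner files were not used here. Probe sets were named from the platform annotation (34945 with 1 symbol, 932 with several, 9160 with none, 64 controls), and 34741 names were matched by Entrez identifier to GRCm38.p6. For each of 18193 genes the probe set with the highest mean was kept; 9010 genes had more than 1.

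A single linear model with a mean for each group was fitted to the 16 arrays (limma 3.58.1, lmFit and eBayes; R 4.3.3), and 5 comparisons were taken from it, with Benjamini-Hochberg adjustment over all genes; probe sets named apart were adjusted over every probe set. Precision is limited by how many arrays a group has, and low values may be background. The code was tested on simulated data. Members and lists (135 of 143 list genes measured) were chosen with earlier results of these data known. Named were all members, Cdkn1a and Mdm4, and per list up to 4 genes that passed with the largest change. For likeness these were the 3 genes with the highest r. Genes described were picked from these, and Aen, Perp and single fibroblast markers were named in addition. Alternatives were other probe set choices, normalizations, array sets, a replicate block, and each array left out.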

Additional observations from a re-analysis of the deposited data

Results flagged for a closer look

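Btg2 differed between the tumour types by a test of the difference itself. Its change was 0.55 in Ctnnb1 tumours and 3.25 in Ha-ras tumours, each against its own controls, and the difference, Ctnnb1 minus Ha-ras, was −2.70 (limma adjusted p = 0.00062). Among the 8 genes it was the one whose difference passed. No array of the Ctnnb1 tumours stood apart from the others past Dixon's ratio on any of the 15 probe sets, a limit that about 1 group in 20 passes by chance; groups of 3 were not tried.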

How the results depend on the processing

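Over all genes, 2192 passed between Ctnnb1 tumours and phenobarbital controls, against 596 with a 2-fold minimum, 3806 over every probe set, 1383 without phenobarbital control 6 and Ctnnb1 tumours 6 and 7 together, and 1337 to 2219 with 1 array left out, the lowest without phenobarbital control 6. Between Ha-ras tumours and untreated controls 2462 passed, against 1086 with a 2-fold minimum and 4013 over every probe set (1698 to 2273 with 1 array left out). The difference between the effects passed for 988, against 1506 over every probe set and 648 to 1177 with 1 array left out, the lowest without untreated control 1. Between control livers 39 passed, against 68 over every probe set, 19 with only these arrays, 21 with the 3 arrays out and 3 to 68 with 1 array left out (lowest without phenobarbital control 4, highest without control 5). Between tumour types 2750 passed, against 898 with a 2-fold minimum, 4619 over every probe set and 1745 to 2883 with 1 array left out, the lowest without Ha-ras tumour 1. The cause of these shifts was not tested, beyond the stricter rule or larger table that the setting itself brings.

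Of the 8 members, 4 passed in Ha-ras tumours, with 2 to 5 when 1 array was left out (2 without Ha-ras tumour 2). The difference between the effects passed for 1, for 1 to 2 with 1 array left out (2 without Ctnnb1 tumour 6), and for 3 with the 3 arrays out. In Ctnnb1 tumours 0 passed, and 1, Phlda3, among the arrays with shared replicate numbers, a setting chosen after seeing the data. The dimmest probe set of Mdm2 gave −0.12 in Ha-ras tumours, opposite in sign to the other probe sets and not passed. Quantile normalization and median centring changed the call of 0 members.

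Replicate numbers are shared between tumours and controls, but nothing says that they mark the same animal. Deviations of same-numbered arrays correlated at 0.13, 0.09 and −0.12 in the phenobarbital groups and 0.03, 0.40 and 0.24 in the other groups, and not every array correlated best with its own number. With the replicate block, 804 genes passed in Ctnnb1 tumours, against 908 in the same arrays without the block, 2324 in Ha-ras tumours and 679 for the difference. Member counts under the block were 0, 4 and 1, and in the same arrays without the block 1, 4 and 1; the call missing under the block was that of Phlda3 in Ctnnb1 tumours.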

Other observations

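Bmf and Trp53bp1 were among the list genes for which the 2 groups of control livers did not overlap, but not the only ones. Cdkn1a had 7.47 to 7.93 in phenobarbital controls, against 6.75 to 7.34 in untreated controls. Gadd45a had 6.00 to 6.43, against 7.08 to 7.63. The share of all genes without overlap was not counted. Of the genes named here, only Trp53bp1 passed between the controls. Bmf, a BH3-only protein, had 5.70, 5.86 and 6.60 in Ha-ras tumours, against 7.60, 8.42 and 7.97 in untreated controls (−1.95 ± 0.47, limma adjusted p = 0.011; not passed without Ha-ras tumour 1 or untreated control 2). It was also low in phenobarbital controls, at 6.12, 5.43 and 6.52, but did not pass (−1.98 against untreated controls, adjusted p = 0.090). Its other probe sets changed by −0.40 (adjusted p = 0.076) and 0.06 (adjusted p = 0.87) in Ha-ras tumours. Between controls they changed by −0.45 (adjusted p = 0.17) and −0.16 (adjusted p = 0.68). Trp53bp1, a DNA damage protein that binds p53, was the 1 gene of the pathway lists that passed between controls. It had 8.22, 8.25 and 8.98 in phenobarbital controls, against 7.24, 7.31 and 7.25 in untreated controls (1.22 ± 0.22, adjusted p = 0.031), and it passed in 1 of 6 runs with 1 array left out; its 5 other probe sets did not pass.

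Ctnnb1 tumour 6 had the highest level of 10 and the lowest of 4 of the 39 further p53 targets among the 7 Ctnnb1 tumours. It was the highest Ctnnb1 tumour for Zmat3 (7.08, against 5.99 to 7.02 in the other 6), Apaf1 (6.51, against 5.86 to 6.18), Cdkn2a (5.35, against 4.47 to 5.03), Bcl2 (7.28, against 5.43 to 6.06) and Egr1 (9.58, against 8.73 to 8.90). It was by far the lowest for the target Perp, a desmosome protein (7.37, against 9.40 to 10.26). The collagen genes Col1a1 (7.77, against 5.40 to 5.96) and Col3a1 (10.82, against 8.60 to 9.48 in the other 6) were also highest in it. The other stellate and fibroblast markers, Lrat, Dcn, Des and Reln, were not, with Lrat at 5.715 and Dcn at 9.499. These genes were chosen after their values were seen, and the order was not tested.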
